A study of Mus musculus with 2 samples.

Results

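The genes described here are 38 genes of autophagy and mitophagy, taken by symbol from gene tables with 43346 genes. They fall into 6 steps: the ULK1 complex (5 genes), the class III PI3-kinase complex (6), ATG9, ATG2 and WIPI (5), conjugation (10), the ATG8 proteins (5), and receptors for cargo and mitochondria (7). All 38 were present in both tables. Total RNA was sequenced after depletion of ribosomal RNA from 2 cultures of the immortalized mouse line G1E, described as an erythroid progenitor and labelled Gata1-, male, of strain C57BL/6J and of postnatal stage. The 2 cultures are numbered as biological replicates of 1 group, and the labels name no treatment and no other line. There was no contrast between conditions, so genes are compared with each other, and the 2 libraries with each other. The labels do not say which part of Gata1 was altered.

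Autophagy carries cytoplasm and organelles to the lysosome inside a double membrane. The ULK1 kinase complex starts the process, and the lipid kinase complex built around PIK3C3 and BECN1 marks the membrane. ATG9, ATG2 and WIPI proteins feed its growth, and enzymes that work like a ubiquitin cascade attach ATG8 proteins to it. Receptors such as SQSTM1 and BNIP3L then bind cargo and ATG8 together. Red cell precursors use this route to shed their mitochondria late in maturation, and BNIP3L is the receptor best known for that step. GATA1, together with FOXO3, is known to activate autophagy genes in maturing erythroid cells, and G1E carries the label Gata1-.

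Replicate 1 held 58094631 expected counts and replicate 2 held 55274368, of which the 38 genes took 0.324% in each. The level of a gene is its TPM, a length-corrected share of transcripts of every kind, scaled to the same total in each library. Nuclear protein-coding genes held 18.0% and 17.0% of that total in replicates 1 and 2, but 83.0% and 80.1% of the expected counts. The TPM values given here are therefore small beside values scaled to protein-coding genes alone. A gene was counted as detected at 1 TPM or more in both libraries. Of the progenitor markers, 7 of 7 were detected (Gata2 at 21.1 and 16.1 TPM), and of maturing erythroid markers 3 of 6, with Alas2 and Slc4a1 under 1 TPM and Hba-a2 at 126 and 155 TPM. The summed level was 185 and 168 TPM for the progenitor markers and 174 and 217 TPM for the maturing ones. Mast cell markers were detected for 3 of 4 genes, with a summed level of 192 and 172 TPM. Cpa3 was the highest of them at 113 and 97.1 TPM, and Mcpt8 was at 0. Megakaryocyte markers were detected for 3 of 4 genes, with a summed level of 76.3 and 74.5 TPM, Plek at 57.9 and 54.8 TPM and Gp1bb at 0. Granulocyte and macrophage markers were detected for 2 of 4 genes, with a summed level of 20.9 and 23.6 TPM. Fcgr3 had 18.5 and 21.4 TPM, and S100a8 was at 0. Fibroblast markers were detected for 0 of 2 genes, with a summed level of 0.44 and 0.02 TPM. Lymphoid markers were detected for 0 of 4 genes, with a summed level of 0.35 and 0.38 TPM. In RNA from a whole culture, fewer cells that express a gene and less RNA per cell cannot be told apart.

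Nearly all of the genes were detected. Of the 38 genes, 35 were detected (92.1%), against 38.7% of the 21461 nuclear protein-coding genes. The median level was 6.19 ± 0.566 TPM (SD of the 2 libraries' medians), beside 0.055 TPM over all nuclear protein-coding genes and 7.0 TPM over the 8303 detected ones. Ranked among all nuclear protein-coding genes, the median gene stood at percentile 79.0. The 3 genes not detected were Atg4c, Wipi1 and Map1lc3a, each a paralog of a detected gene. With TPM rescaled to nuclear protein-coding genes alone, 37 of the 38 were detected, all but Atg4c. On that scale Wipi1 had a mean of 5.02 and Map1lc3a of 6.08, so their absence here rests on the scale of all transcripts.

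List medians differed by step and were highest for the receptors listed here. The list median was 3.15 ± 0.113 TPM for the ULK1 complex, 5.81 ± 0.396 for the class III PI3-kinase complex and 2.92 ± 0.148 for ATG9, ATG2 and WIPI. It was 6.59 ± 0.933 TPM for conjugation, 10.8 ± 1.27 for the ATG8 proteins and 23.0 ± 3.78 for the receptors (SD of the 2 libraries' medians, n = 2). Only 4 genes exceeded 50 TPM, namely Sqstm1, Gabarap, Bnip3 and Bnip3l, and 3 of these are receptors. No test was made between the lists, whose genes are few and unlike.

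**Figure D1:**
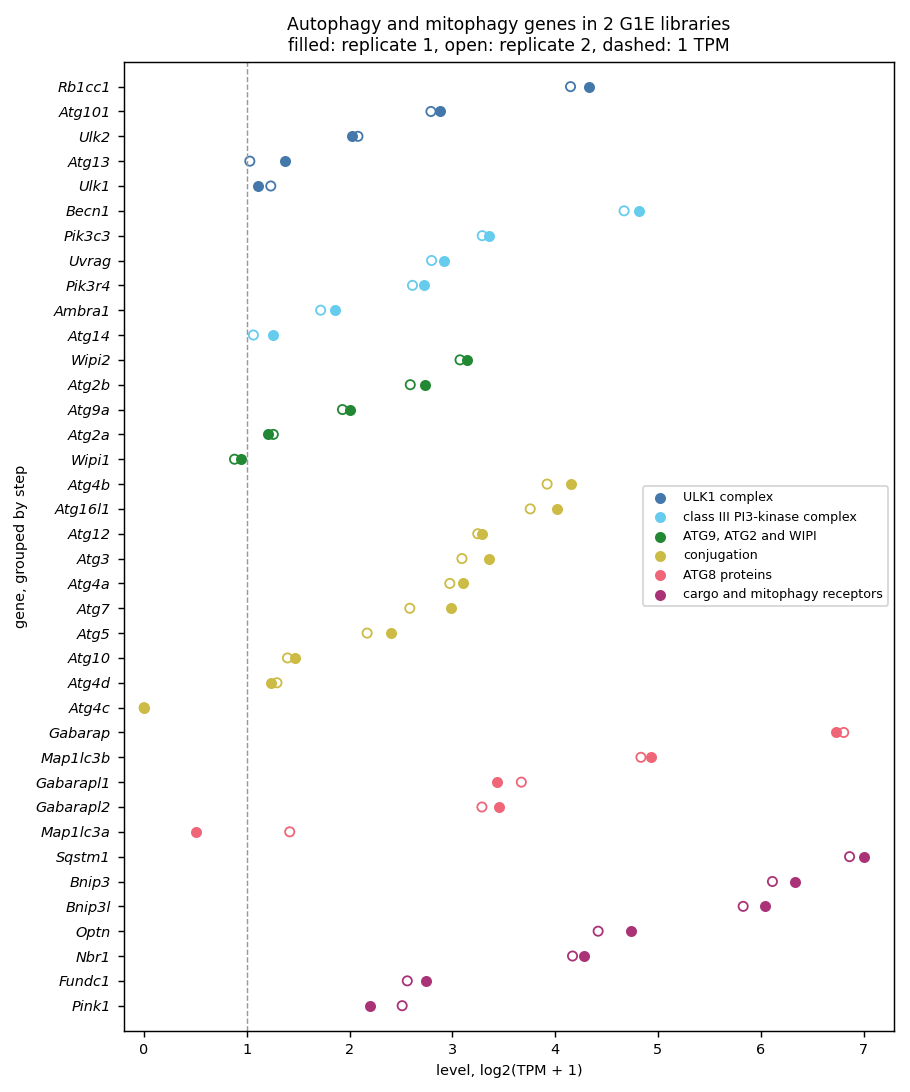
Level of each of the 38 genes in the 2 G1E libraries, as log2(TPM + 1) on the horizontal axis, with genes grouped and coloured by step; filled points are replicate 1 and open points replicate 2. The dashed line marks 1 TPM, with Atg4c and Wipi1 below it in both libraries and Map1lc3a on either side, and Sqstm1 and Gabarap stand farthest right.

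In the ULK1 complex all 5 genes were detected, but the kinases themselves were low. Ulk1, the kinase that starts autophagosome formation (chr5:110784488-110810097, minus strand, mm10), had 1.16 and 1.35 TPM in replicates 1 and 2. Its paralog Ulk2 had 3.07 and 3.23 TPM. Both libraries thus held less Ulk1 than Ulk2: the log2 ratio of Ulk1 over Ulk2 in (TPM + 1) was -0.91 and -0.85. The scaffold Rb1cc1, known as FIP200, led the complex with 19.1 and 16.7 TPM. Atg101, which stabilizes ATG13, had 6.34 and 5.92 TPM. Atg13, the adaptor that links the kinase to the scaffold, had 1.58 and 1.04 TPM. Its level and that of Ulk1 lay in opposite order in the 2 libraries, so these neighbours did not differ beyond their spread.

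The class III PI3-kinase complex was detected in full, with Becn1 leading by gene total. Becn1, the beclin scaffold of the complex (chr11:101285952-101302286, minus strand), had the highest gene total at 27.1 and 24.5 TPM. Much of that total came from transcripts not annotated as coding, as set out further on. Pik3c3, the lipid kinase VPS34, had 9.25 and 8.78 TPM. Pik3r4, its regulatory subunit VPS15, had 5.62 and 5.11 TPM. The kinase exceeded the regulatory subunit in both libraries, with log2 ratios of 0.63 and 0.68 against a limit of 0.45. Of the 2 exclusive partners of beclin, Atg14, which directs the complex to autophagosome formation, had 1.38 and 1.09 TPM. Uvrag, which directs it to endosomes and autophagosome maturation, had 6.56 and 5.95 TPM. Atg14 was therefore the lower partner, at 0.210 and 0.183 of the TPM of Uvrag. Uvrag did not differ from Pik3r4 beyond the limit. Pik3c3 over Uvrag lay at the limit of 0.447, with log2 ratios of 0.439 and 0.493, so it passed in replicate 2 alone. Ambra1, an activating cofactor, had 2.63 and 2.29 TPM.

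Among the genes that supply membrane, 1 paralog of each pair led. Atg9a, the scramblase that travels in vesicles, had 3.02 and 2.81 TPM. Atg2a, a lipid transfer protein, had 1.31 and 1.39 TPM, and its paralog Atg2b had 5.65 and 5.02 TPM. Wipi1, which binds the lipid made by VPS34, had 0.92 and 0.84 TPM and was not detected by the threshold, although 327 and 298 counts lay on it. Its paralog Wipi2, which recruits ATG16L1, had 7.82 and 7.42 TPM. The log2 ratio in (TPM + 1) was -1.52 and -1.33 for Atg2a over Atg2b and -2.20 and -2.19 for Wipi1 over Wipi2, each beyond its limit of 0.45.

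The conjugation enzymes stood at moderate levels, with Atg10 the lowest of those outside the ATG4 family. Atg7, the E1-like enzyme at the head of both conjugation routes, had 6.91 and 5.0 TPM. Atg3, the E2-like enzyme for ATG8 proteins, had 9.21 and 7.53 TPM, and Atg10, the E2-like enzyme for ATG12, had 1.77 and 1.63 TPM. Atg3 exceeded Atg10 in each library, by 5.20-fold and 4.62-fold in TPM. Atg12, the ubiquitin-like modifier, had 8.74 and 8.49 TPM, and Atg5, the protein it is joined to, had 4.30 and 3.50 TPM. Atg12 was the higher of the pair, with log2 ratios of 0.88 and 1.08. Atg16l1, which brings the joined pair to the membrane, had a gene total of 15.2 and 12.5 TPM. In the order of levels, Atg12, Atg3, Atg4a, Atg7 and Atg5 were neighbours of which no adjacent pair differed beyond the limit in both libraries. Atg7 over Atg5 passed the limit of 0.447 in replicate 1 alone, with log2 ratios of 0.578 and 0.415.

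The ATG4 proteases, which trim ATG8 proteins before conjugation and release them afterwards, were expressed unequally. Atg4b, the family member with the broadest activity, had 16.8 and 14.2 TPM. Atg4a had 7.59 and 6.86 TPM and Atg4d 1.36 and 1.45 TPM. Atg4c (chr4:99193934-99259787, plus strand) had 1 count in replicate 1 and 0 in replicate 2, which the authors' table lists as 0 TPM in both. Its counts lay at or under the limit that a count of 0 allows, 3 counts, which equals 0.0516 and 0.0543 CPM (counts scaled by library depth). The upper bound of the authors' interval for Atg4c was 0.052 and 0.046 TPM. With Atg4c listed at 0 TPM, no fold against Atg4b is given.

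The promoter sequences of the highest and the lowest protease gene are shown because these paralogs lay at opposite ends of the family. They come from RefSeq (GRCm38.p6), each 300 bases long with 250 before and 50 after the start, and capitals mark CpG dinucleotides. The promoter of Atg4b (chr1:93754655-93754954, plus strand) held 55 CpG and 78.0% GC. It lies inside the gene as annotated in GENCODE M21, which starts at 93751500. Atg4c has 2 listed starts: the upstream promoter (chr4:99193684-99193983, plus strand) held 8 CpG and 44.7% GC, and the downstream one (chr4:99193897-99194196, plus strand) held 30 CpG and 64.7% GC. The 2 listed promoters of Atg4a held 3 and 11 CpG, and that of the lower Atg4d held 18. CpG number thus did not follow the order of levels in the family, and a link between them was not tested. The median over the 34 promoters listed for 31 of the 38 genes was 19.5 CpG and 59.7% GC, beside 7 CpG and 52.7% GC over 32851 promoters of the same length.
Atg4b: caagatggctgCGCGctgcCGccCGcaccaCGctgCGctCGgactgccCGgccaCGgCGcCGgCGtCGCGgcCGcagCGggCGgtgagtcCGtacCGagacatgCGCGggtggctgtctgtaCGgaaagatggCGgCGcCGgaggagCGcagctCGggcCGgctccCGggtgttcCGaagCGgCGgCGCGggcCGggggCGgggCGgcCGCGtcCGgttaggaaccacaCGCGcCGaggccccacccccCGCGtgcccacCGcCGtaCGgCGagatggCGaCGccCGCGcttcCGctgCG
Atg4c upstream: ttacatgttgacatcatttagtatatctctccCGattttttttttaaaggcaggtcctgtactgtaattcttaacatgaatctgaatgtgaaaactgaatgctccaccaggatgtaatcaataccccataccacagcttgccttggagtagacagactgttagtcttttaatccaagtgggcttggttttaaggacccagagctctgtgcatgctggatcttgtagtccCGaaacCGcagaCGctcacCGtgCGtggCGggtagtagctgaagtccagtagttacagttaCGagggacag
Atg4c downstream: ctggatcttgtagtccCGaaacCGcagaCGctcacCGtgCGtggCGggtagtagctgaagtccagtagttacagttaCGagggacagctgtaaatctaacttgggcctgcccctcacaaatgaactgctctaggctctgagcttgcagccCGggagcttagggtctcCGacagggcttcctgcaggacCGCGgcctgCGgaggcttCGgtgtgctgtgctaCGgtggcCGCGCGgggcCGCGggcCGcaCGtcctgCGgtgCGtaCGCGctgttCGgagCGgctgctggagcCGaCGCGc

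In the ATG8 family Gabarap stood far above the rest, and the LC3 branch was carried by Map1lc3b. ATG8 proteins are the lipid-anchored tags that receptors bind. Gabarap (chr11:69991143-69994951, plus strand) had 106 and 111 TPM from 12174 and 13323 expected counts. Map1lc3b, the usual marker of autophagosomes, had 29.5 and 27.5 TPM. Gabarap thus exceeded Map1lc3b by 3.58-fold and 4.03-fold in TPM, a log2 ratio of 1.81 and 1.97 in (TPM + 1) against a limit of 0.58. Gabarapl1 had 9.79 and 11.7 TPM and Gabarapl2 9.94 and 8.76 TPM. These paralogs lay close together and changed places between the libraries. Map1lc3a had 0.42 and 1.67 TPM, below Map1lc3b in both libraries by log2 ratios of 4.42 and 3.42 for Map1lc3b over Map1lc3a.

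All 7 receptors were detected, and 3 of them ranked among the top genes of the pathway. Sqstm1, the p62 receptor for ubiquitin-tagged cargo (chr11:50199366-50210827, minus strand), had 127 and 115 TPM and stood at percentile 99.0 of nuclear protein-coding genes. Bnip3 (chr7:138890836-138909519, minus strand) had 79.6 and 68.2 TPM, and its paralog Bnip3l (chr14:66985239-67008877, minus strand) had 64.7 and 55.8 TPM. Both are receptors in the outer mitochondrial membrane. The log2 ratio of Bnip3l over Bnip3 in (TPM + 1) was -0.30 and -0.28, inside the limit of 0.52. By counts without a length correction the sign turned, at 0.50, so the order of this pair rests on the length correction.

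The other receptors stood lower. Optn, a receptor for ubiquitin on damaged mitochondria, had 25.7 and 20.4 TPM. Nbr1, which works beside p62, had 18.4 and 17.0 TPM. Optn and Nbr1 did not differ beyond their spread. Fundc1, a mitochondrial receptor linked to low oxygen, had 5.70 and 4.90 TPM. Pink1, the kinase that flags damaged mitochondria, had 3.60 and 4.70 TPM. Bnip3l exceeded Fundc1 by 11.3-fold and 11.4-fold in TPM and Pink1 by 18.0-fold and 11.9-fold.

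In 21 pairs of paralogs or partners, 19 differed in the same direction in both libraries beyond the replicate limit. No share was taken over other pairs of genes, so the count describes these 21 pairs and no trait of the pathway. The limit is 2 times the SD of a single-library ratio, from pooled SDs of log2(TPM + 1) over detected nuclear protein-coding genes. These SDs were 0.16 under 10 TPM, 0.18 from 10 to 100 TPM and 0.22 above, and over the 35 detected genes of the pathway the SD was 0.13. They include the general shift between the libraries, so the limit is wide, and a pair inside it may still differ. The pairs inside the limit were Gabarapl2 over Gabarapl1, at -0.18 ± 0.285, and Bnip3l over Bnip3, at -0.29 ± 0.008 (mean log2 ratio ± SD, n = 2). For pairs with Atg4c, Wipi1 or Map1lc3a the SD was borrowed from genes at 1 TPM or more. For a sign shared by 2 libraries, an exact two-sided test gives at best p = 0.5, so the limit is a measure of size and not a p-value.

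**Figure D2:**
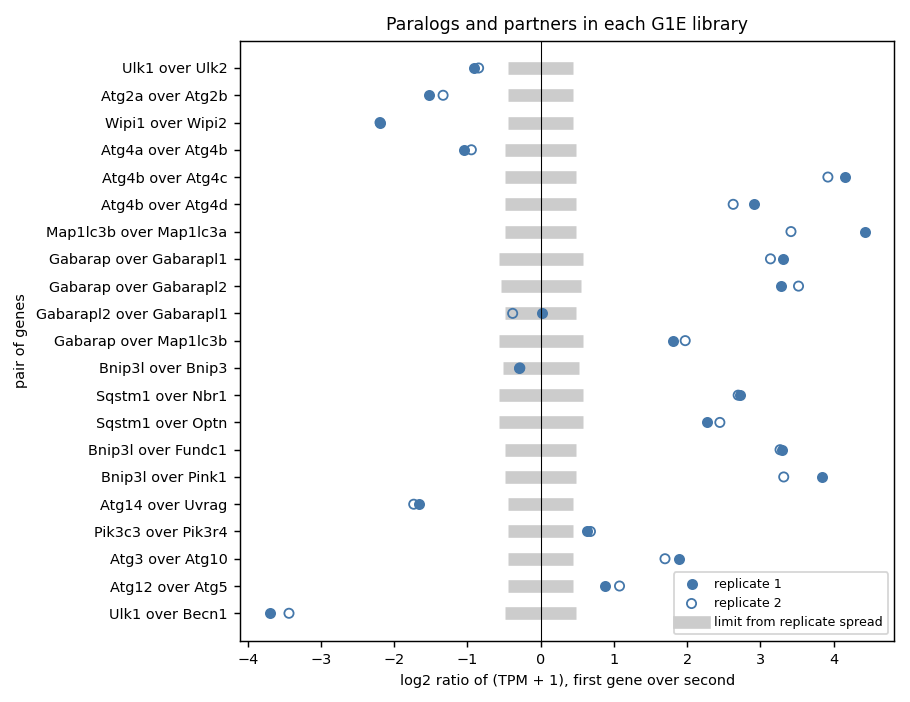
Log2 ratio of (TPM + 1) for 21 pairs of genes, first gene over second, in replicate 1 (filled) and replicate 2 (open); grey bars span the limit from the replicate spread on either side of 0. Both points lie outside the bar in 19 pairs, and Gabarapl2 over Gabarapl1 and Bnip3l over Bnip3 lie inside it.

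Genes around the core pathway were mostly expressed too. Of 63 genes in 5 further lists, 52 were detected (82.5%), with a median of 4.45 ± 0.226 TPM. Of the genes for nutrient and energy signalling upstream of ULK1, 10 of 13 were detected. The AMPK subunit Prkab1 was highest at 43.6 and 39.2 TPM, and the AMPK subunits Prkab2, Prkag2 and Prkaa2 were the undetected ones, with Prkaa2 lowest at 0.02 and 0 TPM. Of further initiation genes, 9 of 11 were detected, led by Vmp1, a scramblase of the endoplasmic reticulum, at 30.2 and 27.1 TPM. The undetected ones were the paralogs Atg16l2, at 0.39 and 0.68 TPM, and Atg9b, at 0.02 and 0.01 TPM.

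All 14 genes for the fusion of autophagosomes with lysosomes were detected. The SNARE gene Vamp8 was highest at 95.6 and 99.5 TPM and Tecpr2 lowest at 1.44 and 1.25 TPM. Of other receptor and mitophagy genes, 13 of 17 were detected. Their median was 9.17 ± 0.622 TPM, below that of the 7 receptors of the pathway list, so a high median was not shared by both lists. Phb2, an inner membrane protein that binds LC3, led with 80.0 and 75.5 TPM, and Retreg1, Stbd1 and Wdfy3 were among the undetected ones, with Wdfy3 lowest at 0.01 and 0 TPM. Of 8 transcription factors of autophagy genes, 6 were detected. The zinc finger factor Zkscan3 was highest at 9.62 and 9.13 TPM, and Foxo1 and Mitf were undetected, with Foxo1 lowest at 0.02 and 0.01 TPM. RNA of Gata1, the gene named in the label of the line, had 7.06 and 7.13 TPM, which by itself neither checks nor contradicts that label.

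**Figure D3:**
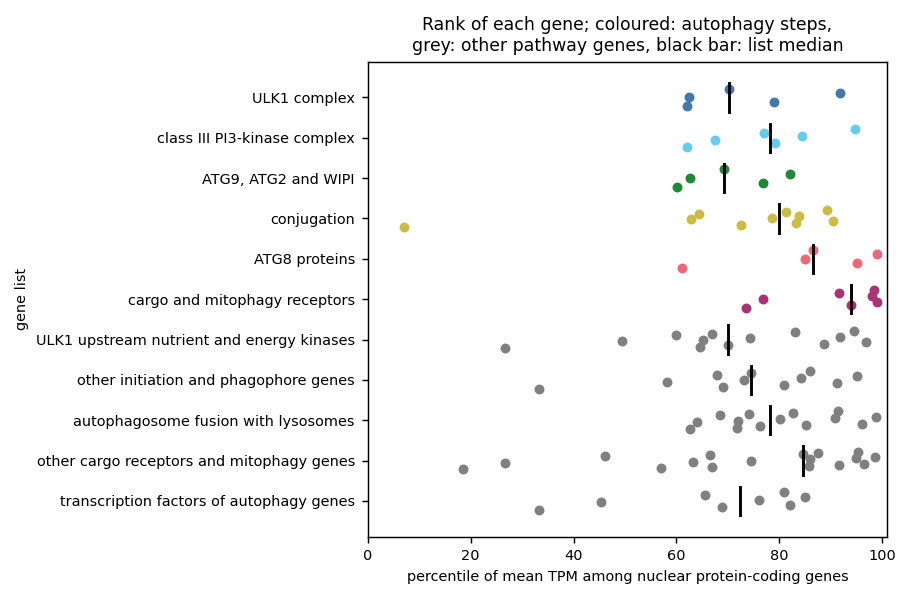
Percentile of each gene's mean TPM among 21461 nuclear protein-coding genes, by list; coloured points are the 6 steps of the pathway, grey points the 5 further lists, and black bars the list medians. The receptors have the highest list median, at percentile 93.9, and Atg4c stands alone at the low end of the conjugation genes.

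By TPM, some gene totals were held in large part by transcripts not annotated as coding. By counts, coding transcripts held 77.2% of Rb1cc1, 77.55% of Sqstm1, 50.8% of Atg16l1 and 32.4% of Becn1. Among the 35 detected genes, 25 had 2 or more annotated transcripts, and in 20 of these the same transcript led in both libraries (80.0%), against a background of 88.2% of detected nuclear protein-coding genes. The leader was annotated as coding in both libraries in 32 of 35 genes (91.4%), against 90.4%. The exceptions were Sqstm1, Becn1 and Atg9a. In 8 of 35 genes (22.9%) retained-intron transcripts held over 20% of the gene's TPM, against 14.3%. Besides Sqstm1, Becn1 and Atg16l1, described next, these were Rb1cc1, Pik3r4, Atg9a, Atg2a and Atg4b. These shares lay near the background, and no difference from it is claimed. By counts, retained-intron transcripts passed 20% in 4 of 35 genes (11.4%), against 7.62%.

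Of the 4 genes above 50 TPM, Sqstm1 had the largest share in retained-intron forms, 52.3% of its TPM. Its leading transcript Sqstm1-203, a retained-intron form of 582 nt, had 58.8 and 56.8 TPM and held 47.7% ± 2.16 of the gene's TPM, but 20.6% and 21.4% of its counts. The main coding transcript Sqstm1-202, of 2037 nt, had 32.0 and 31.9 TPM. Of the 582 nt, 495 nt (85.1%) lie in exons of Sqstm1-202 and 87 nt in intron 7 of that transcript, which is 6.00% of the intron. The junction where Sqstm1-203 runs on from the exon into the intron is shown because no other bases of it lie outside exons of Sqstm1-202 (chr11:50202339-50202428, minus strand, mm10), with the exon in capitals and the intron in lower case, from the GENCODE M21 transcript.
Sqstm1-203: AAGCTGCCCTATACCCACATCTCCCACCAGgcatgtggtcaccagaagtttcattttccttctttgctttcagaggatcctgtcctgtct

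Becn1 had the smallest coding share. Transcripts annotated as coding held 14.9% of its TPM and 32.4% of its counts, forms marked for nonsense-mediated decay held 40.1% of TPM, and retained-intron forms 45.0%. The leader Becn1-211, of 487 nt, had 9.21 and 7.95 TPM, and 99.0% of its bases lie in exons of the coding transcript Becn1-205. The form Becn1-201, of 2123 nt and marked for decay in release M21, took 2516 and 2336 counts, more than any other Becn1 transcript. The transcript types come from that later release, so types in the annotation used for counting may differ.

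In Atg16l1, 3 of the 6 retained-intron forms with counts lie mostly in introns of the coding transcript Atg16l1-201. The 6 forms held 56.2% of the gene's TPM and 49.2% of its counts, and coding transcripts had 6.03 and 6.01 TPM. Atg16l1-204, of 3400 nt, took 22.9% and 18.0% of the gene's counts, and 86.0% of its bases lie in introns of Atg16l1-201. It holds the whole of intron 13, 244 nt long, and 74.3% of intron 14. The starts of both introns are shown as read through in this transcript (chr1:87785967-87786056 and chr1:87786317-87786406, plus strand, mm10), with the exon in capitals and the intron in lower case.
Atg16l1-204 intron 13: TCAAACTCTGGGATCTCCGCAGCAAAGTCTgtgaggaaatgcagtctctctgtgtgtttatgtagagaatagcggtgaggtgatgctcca
Atg16l1-204 intron 14: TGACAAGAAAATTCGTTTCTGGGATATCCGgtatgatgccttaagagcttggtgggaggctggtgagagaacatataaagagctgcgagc

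Counting coding transcripts alone changed the order at the top. Gabarap then led with 104 and 109 TPM, followed by Bnip3 with 76.5 and 66.3 TPM, Sqstm1 with 60.1 and 55.6 TPM and Bnip3l with 49.8 and 49.2 TPM. Sqstm1 over Bnip3 was then inside its limit of 0.576, with log2 ratios of -0.34 and -0.25. Becn1 had 4.19 and 3.52 TPM of coding transcripts, below Pik3c3 with 8.92 and 8.09 TPM. Rb1cc1 had 8.52 and 7.25 TPM. Of the 38 genes, 33 were then detected, with Atg2a at 0.89 and 0.93 TPM and Atg13 at 1.37 and 0.98 TPM falling short, and 18 of 21 pairs passed the limit. The pair that dropped out was Atg4a over Atg4b, at a mean log2 ratio of -0.10. Coding transcripts of Atg4b had 10.9 TPM in replicate 1 and 4.80 TPM in replicate 2, as its 513 nt form Atg4b-203 held 42.8% of the gene's TPM in replicate 1 and 5.48% in replicate 2. The low place of Ulk1 against Becn1 kept its direction, with a log2 ratio of -3.57 on gene totals and -1.10 on coding transcripts.

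**Figure D4:**
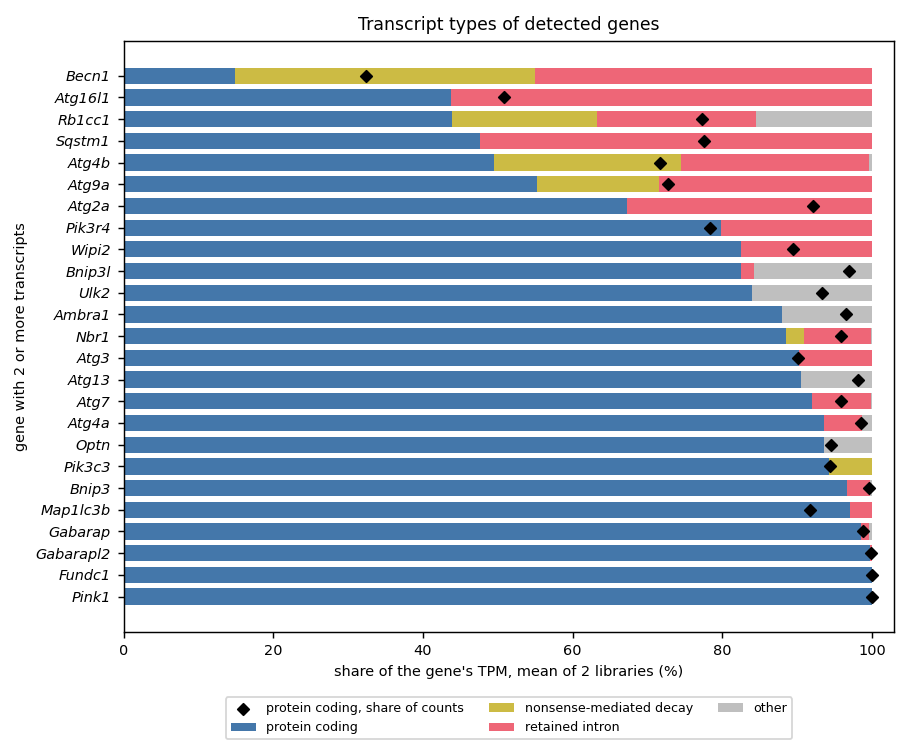
Share of each gene's TPM (mean of 2 libraries, in percent) by annotated transcript type, for the 25 detected genes with 2 or more transcripts, ordered by coding share; black diamonds give the coding share by counts. Becn1 has the smallest coding share, 14.9% of TPM, and Fundc1 and Pink1 are coding throughout.

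For most of the genes the 2 libraries lay close together. Counts were within 1.25-fold between libraries for 32 of the 35 detected genes (91.4%), against 85.0% of detected nuclear protein-coding genes. In a two-sided exact binomial test of counts between the libraries, which compares the libraries and not conditions, 1 of 37 genes tested differed by 2-fold or more, against 14.0% of 18409 genes. Most of the pathway genes lay at high counts, where such differences were rare: of the 34 with 1000 or more counts over both libraries, 0 differed by 2-fold, against 0.238% of 7984 nuclear protein-coding genes at that depth. Atg4c had too few counts to test, and of the 37 genes tested only 1 differed by 2-fold. That gene was Map1lc3a, with 262 counts in replicate 2 and 64 in replicate 1, a log2 ratio of 2.20 and a Benjamini-Hochberg adjusted p of 3.03e-33 in the exact test. It lies at chr2:155276297-155278073 on the plus strand. Among nuclear protein-coding genes with 100 to 1000 counts, 45 were higher and 20 lower in replicate 2, of 1770, so such a difference was uncommon at this depth. The next largest was Pink1, with 1701 counts in replicate 2 and 1265 in replicate 1, a log2 ratio of 0.59 (adjusted p = 3.56e-27 in the exact test), short of 2-fold. With 1 library on each side, the test knows counting error only, and with no minimum fold 21 of 37 genes (56.8%) had an adjusted p under 0.05 in the exact test, against 49.4% of all genes tested. At 1000 or more counts these shares were 58.8% of the 34 pathway genes and 65.8% of nuclear protein-coding genes, so a difference beyond counting error was common in both. The median log2 ratio of replicate 2 over replicate 1 was -0.13 in TPM and 0.07 in TMM-scaled counts for the 35 detected genes, beside -0.11 and 0.06 for detected nuclear protein-coding genes.

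**Figure D5:**
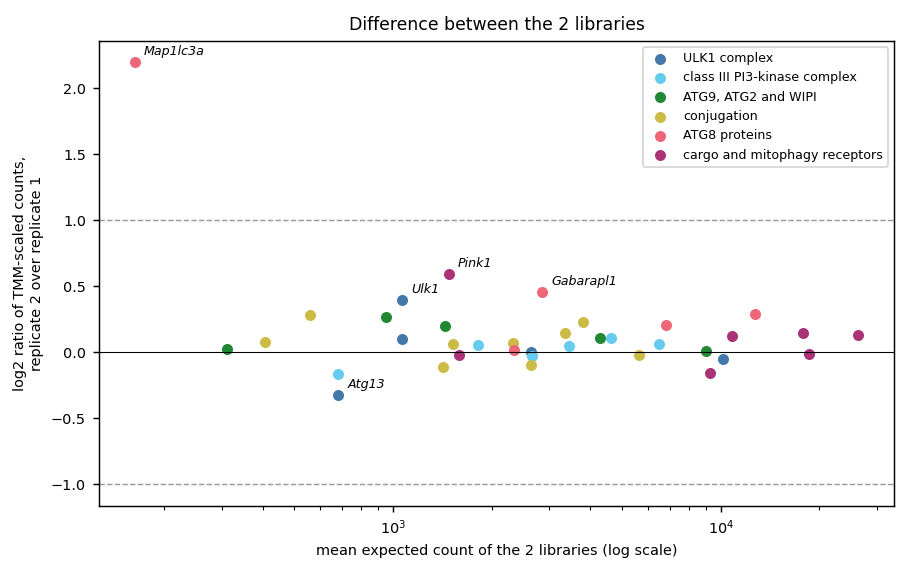
Log2 ratio of TMM-scaled counts, replicate 2 over replicate 1, against the mean expected count (log scale) for the 37 genes tested, coloured by step; dashed lines mark 2-fold. Map1lc3a, at 2.20, is the only one of the 37 genes beyond a dashed line.

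Several genes share bases with a neighbour. Exons of 12 of the 38 genes overlap a gene on the opposite strand, and the sources used here do not say whether counting used strand. The share over all genes was not taken, so the 12 are a caution on levels and not a trait of the pathway. For Becn1 the overlap with Cntd1 covers 43.9% of its exon bases, but Cntd1 held only 75 and 51 counts. For Atg4d the overlap with Kri1 covers 19.3% of its exon bases, and Kri1 held 3679 and 3216 counts against 534 and 581 on Atg4d, so the level of Atg4d is uncertain. For Sqstm1 the overlap with Mrnip covers 17.3%, and Mrnip held 482 and 484 counts. The processed pseudogene Bnip3l-ps held 118 and 115 counts, against 26538 and 26006 on Bnip3l.

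Motifs in the promoters were described by their letters alone. AGATAA, a core bound by GATA factors, was found on either strand in 2 of 34 promoters (5.88%), those of Atg4a and Atg4d, against 11.2% of all promoters. TATAAA was found in 2 (5.88%), those of Sqstm1 and Atg4a, against 13.6%. CACGTG, a palindrome bound by TFEB and other helix-loop-helix factors, was found in 5 (14.7%), those of Bnip3, Atg3, Atg7, Atg5 and Atg14, against 7.15%. The motif itself holds a CpG, and the median of these promoters was 19.5 CpG against 7 over all promoters. The shares were not corrected for base composition and no difference was tested. The Atg3 promoter held 2 matches. Listed starts do not always lie at the start of the gene in M21. The promoter of Atg7 (chr6:114670846-114671145, plus strand) lies inside the gene, which starts at 114643097. That of Atg14 (chr14:47568385-47568684, minus strand) lies inside the gene, which ends at 47570649. Both Atg4a matches lie in the promoter at chrX:140953595-140953894, before the gene start at 140956907, and its second listed promoter held no match. The Bnip3 promoter is shown as that of the highest gene with this motif (RefSeq, chr7:138909457-138909756, minus strand, GRCm38.p6), with the motif in capitals, starting at base -108 from the start site. A match of letters is a description and not evidence of binding.
Bnip3: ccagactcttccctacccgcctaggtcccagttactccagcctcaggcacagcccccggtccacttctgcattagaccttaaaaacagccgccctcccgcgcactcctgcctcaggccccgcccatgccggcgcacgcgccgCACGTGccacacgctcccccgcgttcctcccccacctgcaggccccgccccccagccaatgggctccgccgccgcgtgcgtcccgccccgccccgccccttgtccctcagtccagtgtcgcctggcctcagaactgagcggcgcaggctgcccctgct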

How the data were processed

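The files are RNA-seq tables of 2 G1E libraries, 1 gene table and 1 transcript table each, on mm10 with GENCODE M4 per the deposited read-me. Libraries were made with ScriptSeq from 100 ng, with sizes between 200 and 1000 nt, per the labels. The sources used here name neither an aligner nor a counting program. Per the file headers, the authors deposited expected counts (estimated reads per gene, not always whole), TPM and FPKM (the same reads per effective length, scaled to all transcripts or to all reads), posterior means and bounds of TPM, and a percent, the share of a gene's TPM held by each transcript. Replicates were not pooled.

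Symbols, types and coordinates came from GENCODE M21 by Ensembl identifier (42462 of 43346 genes matched, with all 38 genes). Rows that name no gene held 3.44e-05% and 6.80e-05% of counts in replicates 1 and 2 and were left out. The 38 genes, the lists, the pairs and the markers were chosen with earlier results of these data known, so no list was tested. Each of the 38 genes is named, and of each further list the highest, the lowest and up to 5 undetected genes, except 1 gene that is not reported here.

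Levels are TPM with the SD of 2 libraries, and ratios are on log2(TPM + 1), which understates differences of low genes. The libraries were compared by a two-sided exact binomial test on expected counts rounded to whole numbers, given TMM-scaled library sizes (edgeR 4.0.16 in R 4.3.3), over genes with at least 10 counts in all, with Benjamini-Hochberg adjustment at 0.05 and 2-fold. One group leaves no contrast for edgeR's own test. The procedure was tested on simulated counts with counting error only, which the test assumes. That check does not show how the test behaves with the wider spread of real libraries. Python 3.11.15 with pandas 2.3.3, numpy 2.4.6, scipy 1.17.1 and matplotlib 3.10.9 was used. Alternatives covered thresholds, units, pseudocounts, DESeq2 1.42.0 size factors and single libraries. Coding-transcript TPM was added after seeing the data. Limits from counts cover counting error only and not the spread between cultures. The reads also carry no molecular identifiers.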

Additional observations from a re-analysis of the deposited data

How the results depend on the processing

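With a threshold of 5 TPM in place of 1, 23 of the 38 genes and 29 of the 63 further pathway genes were detected. By FPKM, by CPM or by TPM rescaled to nuclear protein-coding genes, 37 of the 38 genes were detected. The median percentile of 79.0 was 80.6 by CPM with no length correction and 80.9 on protein-coding transcripts only. Among detected genes alone it was 45.8, so the high percentile rests on the undetected genes in the ranking. Leaving out each library in turn gave 79.1 to 79.6. With a minimum of 1.5-fold, 2 genes differed between the libraries. The other counts kept within 1.5 times their value under the alternatives tried. The mean direction of each of the 19 pairs past the limit stayed the same. Of 17 neighbours in the order of levels that differed beyond the limit, 3 changed the sign of their mean log2 ratio on protein-coding transcripts. The mean was -0.97 for Becn1 over Pik3c3, -0.45 for Atg16l1 over Atg12 and -0.30 for Sqstm1 over Bnip3. Only Becn1 over Pik3c3 then lay beyond its limit, of 0.485. Atg16l1 over Atg12 lay inside a limit of 0.485 and Sqstm1 over Bnip3 inside a limit of 0.576, so their order was not settled. Map1lc3a passed the test under DESeq2 size factors (adjusted p = 5.74e-33, exact binomial test), total counts (2.01e-30) and with no filter on low counts (4.76e-33). No paired analysis was possible because there is 1 group.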
